A study of Mus musculus with 12 samples.

Results

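The nuclear genes of the mitochondrial respiratory chain and ATP synthase were followed in subcutaneous Renca tumors. Members were all genes of the deposited table whose symbol starts with Nduf, Uqcr, Atp5, Cox4, Cox5, Cox6, Cox7 or Cox8, together with Sdha, Sdhb, Sdhc, Sdhd, Cyc1 and Cycs. This gave 97 of 14496 genes, of which 92 are annotated as protein coding and 5 as processed pseudogenes. They comprise 7 core and 29 accessory subunits and 8 assembly factors of complex I, 4 subunits of complex II, 10 genes of complex III and cytochrome c, 17 of complex IV and 16 of ATP synthase. The other 6 are the pseudogenes and further copies Atp5l2-ps, Ndufab1-ps, Uqcrh-ps1, Ndufb4c and Cox6c2, and Atp5s.

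IK tumors were 6 subcutaneous tumors from BALB/C mice that also carried a tumor inside the kidney, which the series title and design describe as distant and immunosuppressive. SC tumors were 6 subcutaneous tumors that grew with no kidney tumor. All 12 were taken on day 14 after inoculation with Renca, a renal carcinoma line from BALB/c mice, and the labels name no further treatment. Whole tumors were lysed, so RNA of tumor cells and of stroma is mixed, and fewer cells of a type cannot be told apart from less RNA per cell. Nothing in the labels ties the 12 tumors to 12 different animals. The p-values therefore measure only the spread between these samples, part of which may be technical.

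Complex I and complex II pass electrons from NADH and succinate to ubiquinone, complex III passes them on to cytochrome c, and complex IV passes them to oxygen. The proton gradient built on the way drives ATP synthase. Most subunits are encoded in the nucleus and a small set in mitochondrial DNA, and some complex IV subunits exist as paralogs that differ between tissues, such as the heart and skeletal muscle forms. Renal carcinoma is known for its use of glycolysis, and immune and stromal cells differ in how much they respire.

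Each tumor had 53312559 to 66142468 reads recovered from the deposited values, and the renal epithelial markers were present in all of them (7 of the 8 fixed markers were in the table, none at 0 reads, with a summed level of 2490 to 2623 CPM in IK and 2371 to 2979 CPM in SC tumors, CPM being reads scaled to a common library total). IK replicate 3 stood apart from the other tumors in short transcripts, as described below. SC replicate 6 stood apart in skeletal muscle genes. The median of each complex, and the differences of several members, are also given without IK replicate 3.

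As a property of the members that does not depend on expression, promoters were searched for letters bound by factors known for control of respiratory genes. RefSeq promoters (GRCm38.p6, 250 bases before to 50 after the start) were matched for 75 of the 97 members. The NRF1 letters, GCGCA and GCGC with any 1 base between them, were found on either strand in 18 of these 75 (24%), against 4.78% of all 27025 genes with a listed promoter and 10.2% of the 10057 tested genes with one. The ETS letters CCGGAAG, which GABPA binds, were found in 17 (22.7%), against 9.12% of all and 18.2% of tested genes. The YY1 letters AAGATGGCG were found in 7 (9.33%), against 1.49% and 3.19%, and the ESRRA letters TCAAGGTCA in 2 (2.67%), against 0.407% and 0.239%. In all, 36 of 75 held at least 1 of these 4 (48%), against 14.4% of all and 28.6% of tested genes. Overlaps between different letters were allowed. A match is a description of the letters and not a binding site.

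The promoters below are shown because they belong to members the results turn on: Sdhd had the lowest p of the higher members, and Cox6a1 and Cox8b are a broadly expressed and a muscle-type subunit of complex IV. Capitals mark the matches, which are NRF1, ETS and ESRRA letters in Sdhd, and 2 NRF1 matches and 1 ETS match in Cox6a1. None of the 4 was found in the Cox8b window. The same held for Cox5a, Cox5b, Cox7a1, Cox7a2, Cox7a2l, Cox7b, Cox7c and Ndufa4 of complex IV. Cox6b1 and Cox8a, the broadly expressed counterpart of Cox8b, held ETS letters. The pair shown therefore does not stand for broadly expressed against muscle-type subunits. The windows lie at chr9:50603800-50604099 (minus strand), chr5:115348909-115349208 (minus strand) and chr7:140900397-140900696 (minus strand).
Sdhd: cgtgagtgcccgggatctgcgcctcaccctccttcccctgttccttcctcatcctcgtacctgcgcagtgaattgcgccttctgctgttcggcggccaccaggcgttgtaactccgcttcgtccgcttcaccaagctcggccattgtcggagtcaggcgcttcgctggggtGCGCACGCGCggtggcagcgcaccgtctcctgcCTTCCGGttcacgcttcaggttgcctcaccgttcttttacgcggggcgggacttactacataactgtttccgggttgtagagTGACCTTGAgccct
Cox6a1: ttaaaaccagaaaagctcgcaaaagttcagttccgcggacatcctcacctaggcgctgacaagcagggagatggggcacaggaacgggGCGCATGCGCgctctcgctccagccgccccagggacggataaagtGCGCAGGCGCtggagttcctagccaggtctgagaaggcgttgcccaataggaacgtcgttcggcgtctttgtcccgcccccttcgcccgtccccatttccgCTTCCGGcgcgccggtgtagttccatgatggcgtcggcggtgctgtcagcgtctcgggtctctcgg
Cox8b: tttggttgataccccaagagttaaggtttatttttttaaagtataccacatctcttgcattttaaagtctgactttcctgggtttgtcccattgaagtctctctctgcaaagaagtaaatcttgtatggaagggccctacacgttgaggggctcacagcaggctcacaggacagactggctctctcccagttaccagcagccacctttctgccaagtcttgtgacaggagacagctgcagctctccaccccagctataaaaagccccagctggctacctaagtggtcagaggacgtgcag

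The transcripts of the respiratory chain were at nearly the same level in tumors with and without a kidney tumor. Of the 97 members, 96 passed the filter on low values (6 or more tumors at a log2 CPM no lower than 0), and Cox8b did not. None of the 96 was called by limma at a Benjamini-Hochberg adjusted p under 0.05, and neither was any of all 14008 genes tested (0.00% called). At an unadjusted p under 0.05 there were 2 of 96 members (2.08%), against 1608 of the 14008 genes (11.5%). They were Sdhd, higher in IK tumors, and Cox4i2, lower in them, where 5.86% of all genes were higher and 5.62% lower at that level. Voom on the recovered reads, also fitted with limma, called 0 members and 0 genes, with 3 members and 1641 genes at an unadjusted p under 0.05. The IK and SC tumors overlapped in every member, while 67 of the 14008 genes did not overlap (0.478%).

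Differences are IK minus SC, in log2 CPM. The median member differed by -0.0014, with 46 higher and 50 lower, against a median of 0.0074 over all genes tested, of which 53.3% were higher. The sign of the members' median depended on the scaling and model, with 0.0020 after quantile normalization, 0.012 after median centring, 0.011 with sample weights and 0.00028 with voom. The 95% interval of the difference lay inside a 1.2-fold change in either direction for 87 of 96 members (90.6%), against 61.5% of all genes. Members are abundant, and among the 8989 genes with a mean log2 CPM of at least 4 this share was 80.2%, against 97.6% of the 83 members at that level. The median member differed in absolute size by 0.037, against 0.067 over all genes.

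**Figure D1:**
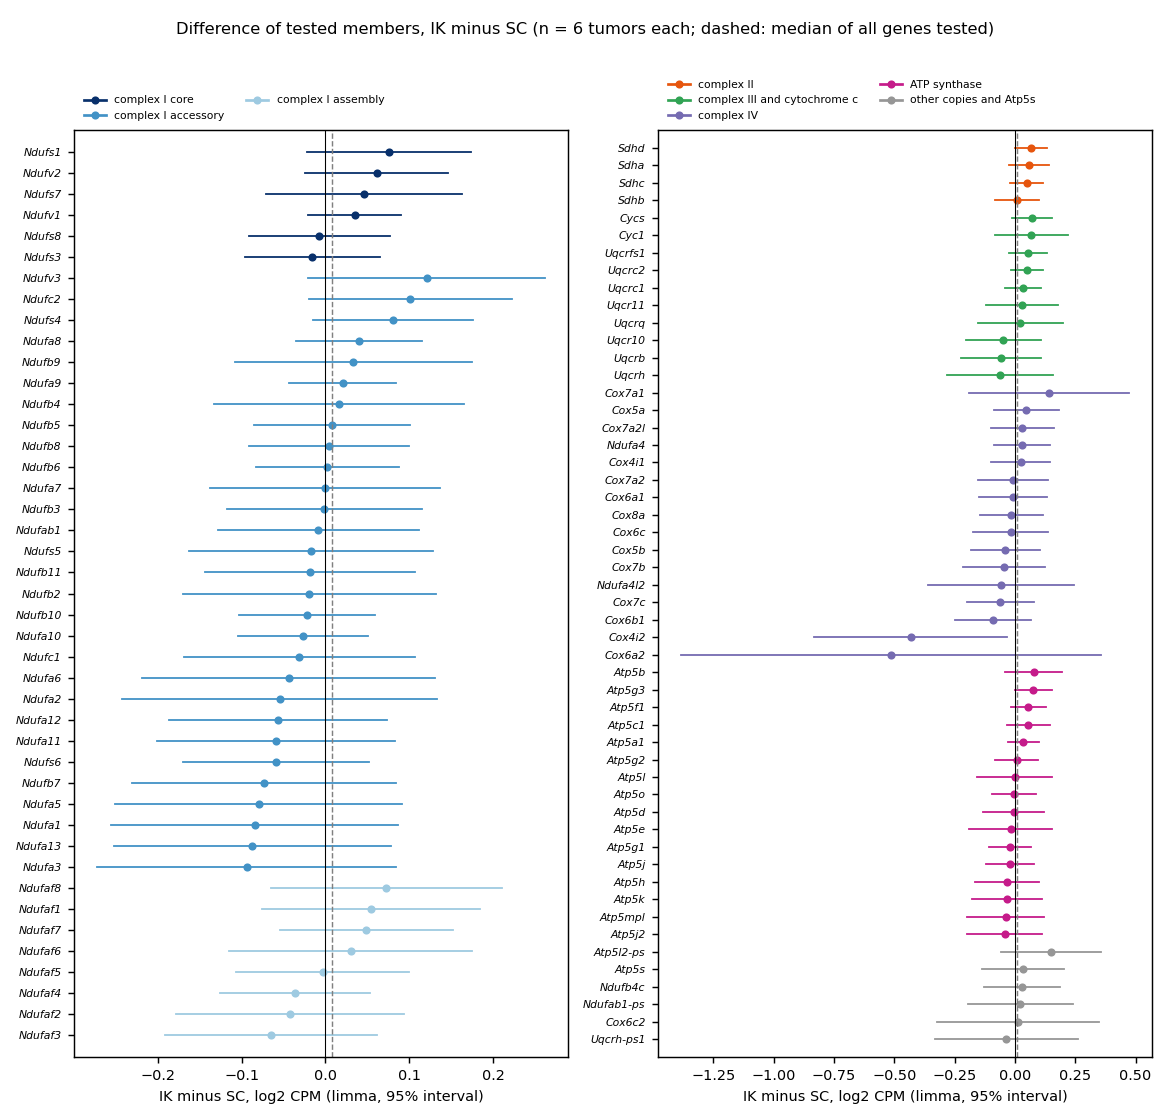
Differences of 95 of the 96 tested members (points, IK minus SC in log2 CPM) with its 95% interval from limma (lines), grouped by complex; the x axes of the 2 panels differ in scale. All but Cox4i2, Cox6a2, Cox7a1 and Atp5l2-ps lie between -0.094 and 0.12.

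Complex I accepts electrons from NADH through its core subunits, which carry the flavin and iron-sulfur clusters. Of the 7 core subunits 5 were higher and 2 lower with a median of 0.035, and 0 had an unadjusted p under 0.05. As an example chosen after its values were seen, Ndufs1, the largest core subunit, had 6.88 ± 0.06 in IK and 6.80 ± 0.10 log2 CPM in SC tumors (SD, n = 6 each). The 29 accessory subunits, which surround the core, were higher in 10 and lower in 19, with a median of -0.018. They ran from Ndufa3, at 5.39 ± 0.19 in IK and 5.48 ± 0.11 in SC tumors (difference -0.094, SE 0.083, limma adjusted p = 0.62, and -0.025 without IK replicate 3), to Ndufv3, at 5.78 ± 0.16 and 5.66 ± 0.06 (0.12, SE 0.065, adjusted p = 0.467). Ndufc2, a membrane-arm subunit, differed by 0.10 (95% interval -0.020 to 0.22). The 8 assembly factors, which build the complex and are not part of it, were evenly split, 4 higher and 4 lower, with a median of 0.013 (0.0010 without IK replicate 3).

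Complex II, which is also an enzyme of the citric acid cycle, was higher in 4 of 4 subunits by a median of 0.053, but none passed over all genes. Sdhd, a membrane anchor, had 6.78, 6.85, 6.73, 6.76, 6.71 and 6.80 log2 CPM in IK tumors, against 6.72, 6.64, 6.71, 6.73, 6.68 and 6.76 in SC tumors. The ranges overlapped, with IK replicate 2 highest and SC replicate 2 lowest. Its difference was 0.067 (SE 0.031, unadjusted p = 0.0474, limma adjusted p = 0.432), a fold of 1.05, and ranged from 0.052 to 0.079 with single tumors left out. Sdha, the flavoprotein that oxidizes succinate, had 7.87 ± 0.04 in IK and 7.81 ± 0.08 log2 CPM in SC tumors (0.058, SE 0.037, limma adjusted p = 0.509). Sdhc, the other anchor, had 6.85 ± 0.04 and 6.80 ± 0.06, and Sdhb, the iron-sulfur subunit, 7.53 ± 0.09 and 7.52 ± 0.06. The difference of Sdhb was 0.0085, was 0.040 without IK replicate 3, and lay below 0 when IK replicate 2, IK replicate 4 or SC replicate 5 was left out.

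Complex III and cytochrome c had 7 of 10 genes higher, with a median of 0.031. Cycs, the soluble electron carrier, had 6.13, 6.33, 6.13, 6.19, 6.15 and 6.18 log2 CPM in IK tumors, against 6.05, 6.07, 6.20, 6.15, 6.10 and 6.12 in SC tumors. IK replicate 2 was highest, and the other IK tumors lay within the SC range. The difference was 0.072 (SE 0.039, limma adjusted p = 0.467). Cyc1, the membrane-bound cytochrome of complex III, had 7.78 ± 0.12 in IK and 7.71 ± 0.14 in SC tumors. The small subunits Uqcrh, Uqcrb and Uqcr10, named after their values were seen, were the 3 lower ones, at -0.063, -0.057 and -0.048. Without IK replicate 3 they stood at 0.0043, -0.023 and 0.024, and 9 of 10 genes of complex III and cytochrome c were higher, with a median of 0.058.

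ATP synthase had 6 of 16 genes higher and a median of -0.0043, which was 0.0089 after median centring. Its catalytic subunit gene Atp5b was the most abundant member, at 10.39 ± 0.08 log2 CPM in IK and 10.31 ± 0.10 in SC tumors. Atp5a1, the other large subunit of the catalytic head, had 9.42 ± 0.03 in IK and 9.38 ± 0.04 in SC tumors. Both were picked after their values were seen, as was Atp5g3, a gene of the membrane ring, at 7.86 ± 0.04 and 7.78 ± 0.07 (difference 0.076, unadjusted p = 0.0511, limma adjusted p = 0.434). On a scale of CPM per kb of annotated transcript, the median gene was at 166 in ATP synthase, 125 in complex IV, 116 in complex III with cytochrome c, 82.8 in complex II, 65.1 among core and 67.3 among accessory subunits of complex I, and 13.0 among complex I assembly factors. These levels are geometric means over the 12 tumors and rest on the annotated length of 1 transcript per gene.

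Complex IV, whose nuclear subunits surround the catalytic core made in mitochondria, was higher in 5 and lower in 11 of 16 tested genes, with a median of -0.016. The broadly expressed subunits differed little: Cox4i1 had 7.99 ± 0.12 in IK and 7.97 ± 0.08 log2 CPM in SC tumors, Cox6a1 7.45 ± 0.14 and 7.45 ± 0.10, Cox7a2 6.64 ± 0.17 and 6.64 ± 0.05, and Cox8a 6.96 ± 0.15 and 6.97 ± 0.05. Ndufa4, first assigned to complex I and now counted with complex IV, had 7.18 ± 0.14 and 7.15 ± 0.03. Cox6b1, a subunit that helps hold the dimer together, lay between 6.61 and 7.17 in IK tumors (median 6.93) and between 6.93 and 7.10 in SC tumors (median 6.98; difference -0.090, SE 0.073, limma adjusted p = 0.587), and its difference was -0.031 without IK replicate 3.

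The largest differences among all members were those of rare tissue-restricted paralogs. Cox4i2, the form of Cox4 known from lung and from oxygen-sensing cells, had 0.02, 0.64, -0.18, 0.31, 0.73 and -0.11 log2 CPM in IK tumors, against 0.38, 0.43, 1.06, 0.73, 0.72 and 0.70 in SC tumors. IK replicates 1, 3, 4 and 6 lay below all SC tumors, and replicates 2 and 5 within their range. The difference was -0.43 (SE 0.18, 95% interval -0.83 to -0.034, unadjusted p = 0.0356, limma adjusted p = 0.432), and the lowest tumor had 51 reads. With each tumor left out in turn it ranged from -0.53 to -0.35. The ratio of Cox4i2 to Cox4i1 within a tumor, which does not depend on scaling between tumors, was -7.76 ± 0.34 in IK and -7.30 ± 0.25 in SC tumors on the log2 scale. It differed by -0.46 (95% interval -0.84 to -0.076, two-sided exact permutation p = 0.0303, adjusted p = 0.152 over the 5 paralog pairs tested), so it did not pass.

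Cox6a2 and Cox8b are the muscle and heart forms of their subunits. Cox6a2 had 0.31, 1.77, -0.07, 0.29, 0.89 and 0.19 log2 CPM in IK tumors, against 1.77, 0.93, 0.61, 1.11, 2.24 and -0.20 in SC tumors. SC replicate 5 was highest and SC replicate 6 lowest, so the IK tumors lay wholly within the SC range. Its difference was -0.51 (SE 0.40, limma adjusted p = 0.575), with -0.77 without SC replicate 6 and -0.28 without SC replicate 5. Cox8b had 4, 62, 19, 6, 36 and 29 reads in IK tumors, against 59, 37, 13, 14, 94 and 4 in SC tumors, and was not tested. IK replicate 1 and SC replicate 6 were lowest and SC replicate 5 highest.

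Both genes ranked the tumors much as the fixed skeletal muscle markers did. The 17 tested markers averaged 1.47 to 3.64 log2 CPM in IK tumors, against -1.43 to 4.76 in SC tumors, where SC replicate 6 held the lowest and SC replicate 5 the highest value. The markers summed to 78.0 to 317 CPM in IK and 21.1 to 664 CPM in SC tumors. Of the 18 markers, Tnnc2 was at 0 reads in SC replicate 6, and none was at 0 elsewhere. Fat cell markers, too, were highest in SC replicate 5 (4.06 mean log2 CPM). They were lowest in IK replicates 4 and 1 (1.09 and 1.33), with SC replicate 6 at 2.34. Relations of Cox6a2 and Cox8b to fat cell markers were not tested, so their tie to muscle cannot be called particular to it. Across the 12 tumors the mean muscle level and Cox6a2 gave Pearson r = 0.763 (permutation p = 0.0015, adjusted p = 0.00525 over 7 relations) and Spearman rho = 0.909 (permutation p = 0.00014, adjusted p = 0.00049). For Cox8b they gave r = 0.821 (permutation p = 2e-05, adjusted p = 0.00014) and rho = 0.909 (permutation p = 0.00012, adjusted p = 0.00049). Without the 2 tumors farthest from the median muscle level, SC replicates 5 and 6, r was 0.766 for Cox6a2 and 0.915 for Cox8b. Within groups r was 0.664 in IK and 0.889 in SC tumors for Cox6a2, and 0.983 and 0.875 for Cox8b.

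Cox7a1, also a muscle form, did not share this order. It had 0.60 ± 0.25 in IK and 0.46 ± 0.27 log2 CPM in SC tumors (0.14, SE 0.15, limma adjusted p = 0.685, and 0.22 without IK replicate 3), and its r with the muscle level was -0.298 (permutation p = 0.368, adjusted p = 0.43; rho = -0.413, permutation p = 0.186, adjusted p = 0.326; r = -0.287 without SC replicates 5 and 6). Within groups its r was -0.0764 in IK and -0.406 in SC tumors. Ndufa4l2, a hypoxia-induced relative of Ndufa4 that marks pericytes in mouse, had 0.96 ± 0.20 in IK and 1.02 ± 0.27 log2 CPM in SC tumors (-0.057, 95% interval -0.36 to 0.25). The hypoxia markers averaged 5.62 to 7.03 log2 CPM in IK tumors, against 5.43 to 6.26 in SC tumors, with 10 of 11 higher. At an unadjusted p under 0.05 (limma) were 5 of these 11 markers, against 11.5% of all genes, and none was called. Against them r was -0.342 for Ndufa4l2 (permutation p = 0.276, adjusted p = 0.404; rho = -0.245, permutation p = 0.443, adjusted p = 0.617; r = -0.521 without IK replicates 1 and 6). For Cox4i2 it was -0.602 (permutation p = 0.0371, adjusted p = 0.0865; rho = -0.448, permutation p = 0.146, adjusted p = 0.326), and -0.187 without IK replicates 1 and 6, on which it rests. The 7 pericyte markers were all in the table and above 0 reads in every tumor, and summed to 174 to 235 CPM in IK and 172 to 264 CPM in SC tumors. Their r was -0.331 with Cox4i2 (permutation p = 0.288, adjusted p = 0.404; rho = -0.203, permutation p = 0.528, adjusted p = 0.617; -0.0435 without SC replicates 2 and 3) and 0.14 with Ndufa4l2 (permutation p = 0.677, adjusted p = 0.677; rho = 0.021, permutation p = 0.955, adjusted p = 0.955; 0.0547 without them). Within groups r of Cox4i2 was -0.668 in IK and 0.347 in SC tumors with the hypoxia markers, and 0.085 and -0.546 with the pericyte markers. For Ndufa4l2 it was -0.395 in IK and -0.327 in SC tumors with hypoxia, and -0.533 and 0.559 with pericytes. With the mean muscle level as a covariate in limma, the difference was -0.47 for Cox6a2, -0.43 for Cox4i2, 0.14 for Cox7a1 and -0.052 for Ndufa4l2, close to the values without it. The muscle level averaged 2.66 ± 0.76 in IK and 2.79 ± 2.18 log2 CPM in SC tumors. With group means this close, the covariate could move these differences little, whatever the part of muscle. The part of muscle, of pericytes and of hypoxia in these differences was not tested.

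**Figure D2:**
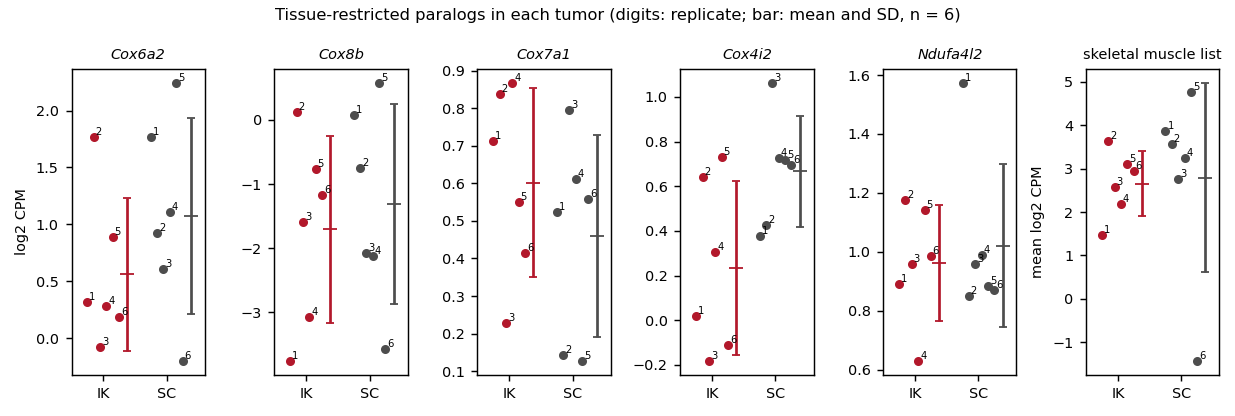
Log2 CPM of 5 tissue-restricted paralogs and mean log2 CPM of the skeletal muscle markers in the 6 IK tumors (red) and the 6 SC tumors (grey); bars give the mean and SD. SC replicate 6 is lowest and SC replicate 5 highest for Cox6a2 and for the muscle markers, and 4 of 6 IK tumors lie below all SC tumors for Cox4i2.

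The other paralog ratios did not differ beyond their spread. The log2 ratio differed by -0.51 for Cox6a2 to Cox6a1 (95% interval -1.5 to 0.53, exact permutation p = 0.303, adjusted p = 0.505), and by 0.15 for Cox7a1 to Cox7a2 (-0.10 to 0.40, exact permutation p = 0.219, adjusted p = 0.505). It differed by -0.38 for Cox8b to Cox8a (-2.3 to 1.6, exact permutation p = 0.658, adjusted p = 0.658) and by -0.088 for Ndufa4l2 to Ndufa4 (-0.42 to 0.24, exact permutation p = 0.561, adjusted p = 0.658). All these intervals include 0, and those of the Cox6a2 and Cox8b pairs are the widest.

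The members varied together within groups, less so without IK replicate 3. After the group means were removed, the median pairwise r over 12 tumors was 0.466 among the 96 members, against 0.0546 among genes with a mean log2 CPM of at least 4. Without IK replicate 3 it was 0.267, against 0.061 among those genes. Transcripts under 800 bases gave 0.62 among members and 0.479 among all such genes at that level, and 0.299 and 0.183 without IK replicate 3. Members of at least 1500 bases gave 0.338, and 0.361 without it, against 0.0988 and 0.0833 among all such genes. By complex, with all tumors, the value was 0.634 among complex I accessory subunits, 0.551 in complex IV and 0.523 in ATP synthase, with 0.275 in complex III with cytochrome c, 0.234 among complex I core and 0.238 among complex II subunits. Without IK replicate 3 those of accessory subunits, complex IV and ATP synthase were 0.288, 0.197 and 0.318. Complex III with cytochrome c was then at 0.265 and the core subunits at 0.197, while complex II rose to 0.352. The complex I assembly factors gave 0.260 with all tumors and 0.335 without IK replicate 3. Counts of members higher or lower are therefore not counts of independent genes. IK replicate 3 lay lowest: its median member deviated by -0.18 from the mean of all 12 tumors, while the others lay between -0.053 (SC replicate 5) and 0.078 (IK replicate 4).

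**Figure D3:**
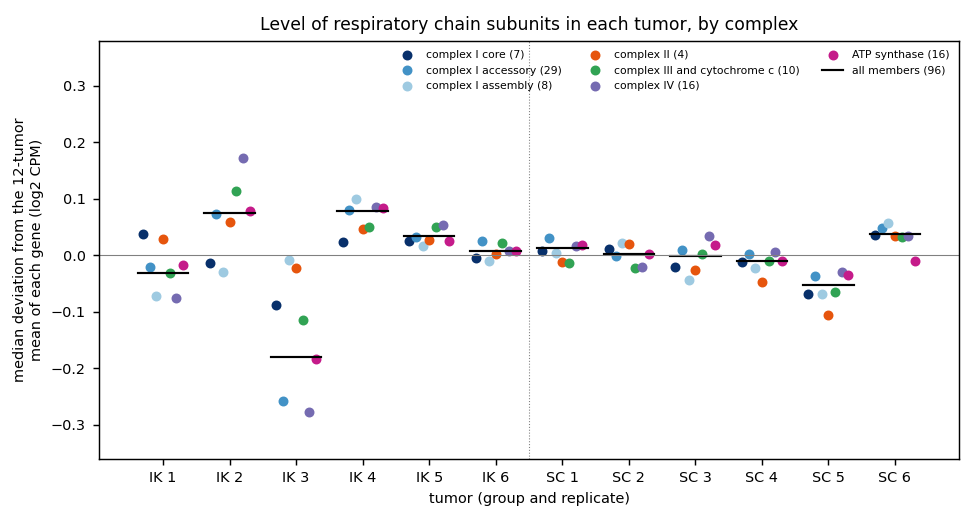
Median deviation of the members of each complex from their mean over the 12 tumors (points, log2 CPM), with IK tumors left and SC tumors right and black bars for all 96 members. IK replicate 3 has the lowest medians, -0.28 in complex IV and -0.26 in accessory subunits, but -0.023 in complex II.

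The deviation of IK replicate 3 went with transcript length. Members with an annotated transcript under 800 bases (48 genes) lay at a median of -0.28 in that tumor, those from 800 to under 1500 bases (29 genes) at -0.15 and those of at least 1500 bases (19 genes) at -0.017. IK replicate 2 was opposite, at 0.14, 0.076 and 0.0085. The same order held over all genes tested, with -0.19, -0.075 and 0.041 in IK replicate 3 and 0.11, 0.039 and -0.027 in IK replicate 2 (943, 1931 and 10689 genes). Across the 96 members Spearman's rho of the deviation with length was 0.701 in IK replicate 3 and -0.504 in IK replicate 2, and in the other 10 tumors it lay between -0.316 and 0.234. Over the 13565 tested genes with a length it was 0.387 and -0.22. These correlations run across genes of 1 library, which are not independent.

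**Figure D4:**
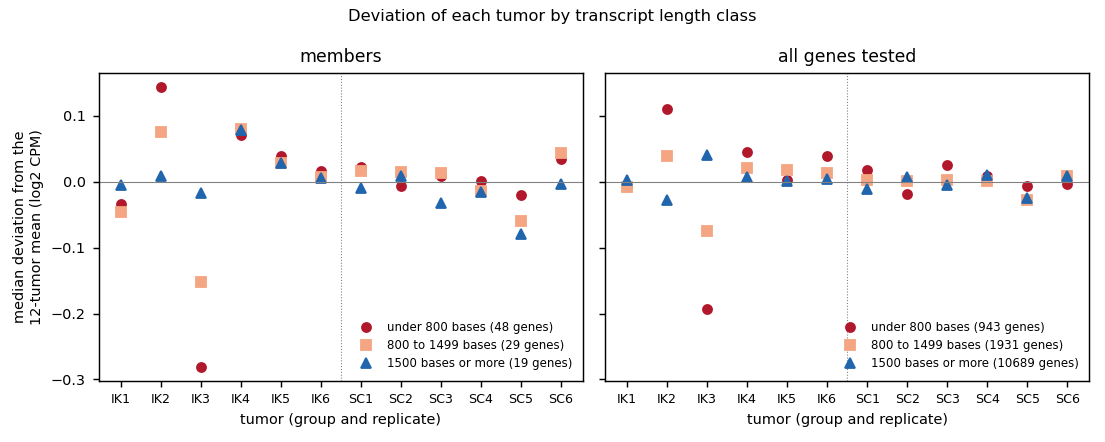
Median deviation of each tumor from the 12-tumor mean (log2 CPM) for transcripts under 800 bases, from 800 to under 1500 bases and of at least 1500 bases, among the members (left) and all genes tested (right). In IK replicate 3 the classes spread from -0.28 to -0.017 among members, and in IK replicate 2 from 0.14 to 0.0085.

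With IK replicate 3 left out, the small difference of the members leaned to one side. The median difference was then 0.034 in place of -0.0014, and 77 of 96 members were higher (80.2%), against 52.8% of all genes. Short transcripts of other genes leaned the same way: of the 351 genes under 800 bases with a mean log2 CPM of at least 4, members included, 271 were then higher, with a median of 0.042, beside 37 of the 48 members under 800 bases, with a median of 0.037. From 800 to under 1500 bases 23 of 29 members were higher (median 0.022), beside 728 of 1073 genes at that level (0.030). Of at least 1500 bases 17 of 19 members were higher (median 0.051), beside 4213 of 7454 genes at that level (0.012). With every tumor 16 of these 19 members were higher. All 16 ATP synthase genes were higher (median 0.032), against 6 of 16 with every tumor. So were 11 of 16 complex IV genes (median 0.039), against 5, and 20 of 29 accessory subunits (median 0.025), against 10. Still 0 members and 0 of the 14008 genes were called by limma (0.00%, adjusted p of at least 0.569 in members), with 7 members, all higher, at an unadjusted p under 0.05 (8.34% of all genes, 4.39% on the higher side). The medians of complex II and of the core subunits were then 0.055 and 0.035, close to those with all tumors, while 7 of 7 core subunits were higher, against 5. With the trend on length removed from every tumor, an alternative chosen after seeing the data, 74 of 96 members were higher with a median of 0.040, where the median of all genes was 0.044, and 0 were called (0.00% of genes). The medians of accessory subunits, complex IV and ATP synthase were then 0.023, 0.024 and 0.039. There were 9 members, 8 of them higher, at an unadjusted p under 0.05 (12.1% of genes, 7.67% on the higher side). Leaving out IK replicate 2, opposite by length, moved the members the other way, with 40 of 96 higher and a median of -0.0082. The medians of accessory subunits, complex IV and ATP synthase were then -0.034, -0.049 and -0.024. At an unadjusted p under 0.05 (limma) were 3 of 96 members, all lower, beside 3416 of the 14008 genes, 1674 of them lower. Called were 0 of 96 members and 171 of the 14008 genes. At so small a share over all genes, 0 of 96 says little about the members. The Spearman correlation of a member's difference with its length was 0.355 with all tumors and -0.0106 without IK replicate 3. What made that library differ was not tested.

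**Figure D5:**
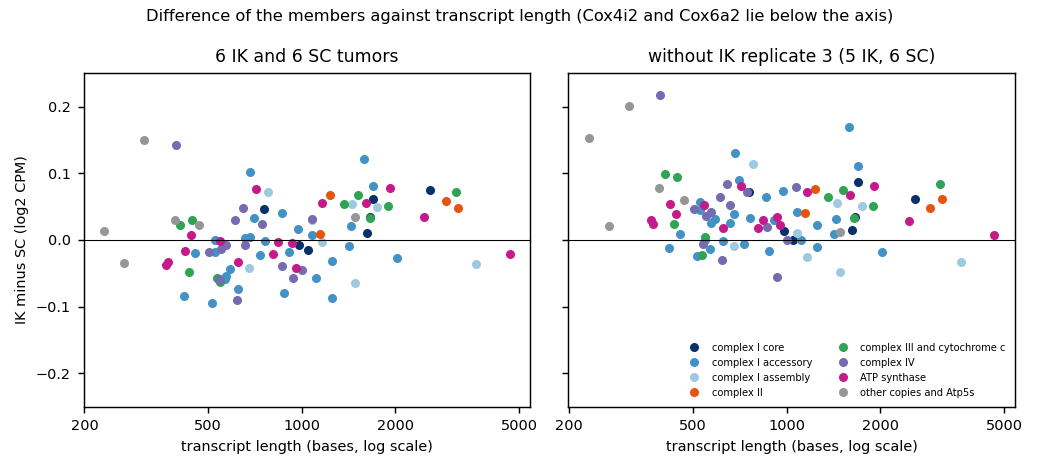
Difference of each member (IK minus SC, log2 CPM) against its transcript length in bases (log axis), with all tumors (left) and without IK replicate 3 (right), colored by complex. On the left short transcripts lie mostly below 0 and long ones above it, and on the right 77 of 96 lie above 0; Cox4i2 and Cox6a2 are off the scale.

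Genes that work beside the members were looked at as fixed lists. The 13 protein genes of mitochondrial DNA, which encode subunits of complexes I, III, IV and ATP synthase, were higher in 13 of 13, by a median of 0.11. No test was run over this list, and its genes need not be independent. Of all genes tested 53.3% were higher, and 60.1% of those with a mean log2 CPM of at least 4. At an unadjusted p under 0.05 (limma) were 11.5% of all genes. They are abundant, summing to 65835 to 73180 CPM in IK tumors, against 59210 to 69416 CPM in SC tumors. None was called. The gene of a small complex I subunit, mt-Nd4l, was the one with an unadjusted p under 0.05 in limma (difference 0.18, SE 0.067, unadjusted p = 0.0202, limma adjusted p = 0.432). Citric acid cycle and pyruvate dehydrogenase genes were higher in 15 of 16 (median 0.056, 2 at an unadjusted p under 0.05). Of the 14 regulators of mitochondrial biogenesis 10 were higher (median 0.047), with Tfam, the packaging and transcription factor of mitochondrial DNA, at 0.090 and the coactivator Ppargc1a at 0.12 (SE 0.17). The 4 lower ones were Esrra (-0.081), Polg (-0.080), Pprc1 (-0.070) and Gabpb1 (-0.028), and Pprc1, a relative of Ppargc1a, was the one regulator with an unadjusted p under 0.05 (limma unadjusted p = 0.0465, limma adjusted p = 0.432). The 35 assembly factors of other names were higher in 23 (median 0.019, 4 at an unadjusted p under 0.05, of which Tmem70 and Nubpl were higher and Lyrm7 and Cox17 lower). SC replicate 5 was lowest of all 12 tumors for the mitochondrial-DNA list (11.58 mean log2 CPM), and for the citric acid cycle list (6.99), and it had the highest muscle, fat cell and leukocyte levels. Proliferation genes were higher in 8 of 8 (median 0.11, 4 at an unadjusted p under 0.05). Leukocyte genes were lower in 7 of 7 (median -0.30, 1 at that level). Fat cell markers were lower in 5 of 5 tested (median -1.15, 3 at an unadjusted p under 0.05) and renal epithelial markers in 6 of 7 (median -0.071), and the part of these in the members' differences was not tested.

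Many members have near-identical copies in the genome. In 37 of 97 more than 10% of the 50-base stretches of the annotated transcript also occur in a transcript of another gene. The values of Atp5g2, Ndufb4c, Atp5l, Ndufab1-ps and Atp5l2-ps, with shares of 73.4% to 100%, are therefore uncertain, and so in part are those of Cycs (28.5%), Cox6a1 (12.3%) and Cox4i1 (12.2%). This includes Atp5l2-ps, which had the largest positive difference of all members, 0.15 (SE 0.096, limma adjusted p = 0.507). None of Sdha, Sdhb, Sdhd, Cox4i2, Cox7a2, Cox8a and Cox8b shared any such stretch.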

How the data were processed

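RNA-seq of 12 whole tumors was used, 6 per group. Per the submitters' processing notes the authors used CASAVA 1.8.2, TopHat 1.4.1, HTSeq, limma and build mm9, and settings, strand handling and annotation are not given in the sources used here. The authors deposited log2 values, and 2 to their power is, in 100% of values within 0.001 of a read, an integer read number with 0.5 added, scaled by 1 factor for each tumor (log2 CPM). These recovered reads gave the depth, under which counting error is small for all but the rarest members. Symbols and transcript lengths came from GENCODE M21 by identifier (14004 of 14496 genes). That annotation uses another build than mm9, so the only coordinates given are those of the promoter windows, on GRCm38.p6.

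The 14008 genes that reached a log2 CPM of 0 in 6 or more tumors entered limma 3.58.1 (R 4.3.3; variance trend, two-sided, Benjamini-Hochberg over all genes, threshold 0.05), which was tested on simulated data. Paralog ratios used exact permutation over 924 assignments, and relations 100000 permutations. Every pair within a group of tumors differed by more than sampling noise (chi-square over its degrees of freedom, 13.2 to 164 in 30 pairs). Same-numbered tumors were not treated as pairs. The values of 1 member are not reported here, though it is counted in the summaries. Members and lists were chosen with earlier results of these data known. Named genes were the 4 largest differences in each direction, the paralog pairs, Sdha to Sdhd, Cyc1 and Cycs; others are named as chosen after seeing values or as examples. Alternatives were voom, a muscle covariate, other filters and scalings, a replicate block, weighting of samples, other variance settings, leaving out each tumor and, added later, a length adjustment.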

Additional observations from a re-analysis of the deposited data

Results flagged for a closer look

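Among 60 sets of 6 tumors examined for a tumor far from the rest, 5 held one, where chance gives about 1 in 20. Ndufa4l2 stood at 1.57 log2 CPM in SC replicate 1, against 0.85 to 0.99 in the other SC tumors. Ndufa4 stood at 7.10 in SC replicate 5, against 7.15 to 7.18 in the other SC tumors. Cox4i1 stood at 7.75 in IK replicate 3, against 7.996 to 8.09 in the other IK tumors, and the mean over complex I accessory subunits at 5.61, against 5.82 to 5.93. Cycs stood at 6.33 in IK replicate 2, against 6.13 to 6.19 in the other IK tumors.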

How the results depend on the processing

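Under every alternative 0 members were called at an adjusted p under 0.05 (limma). Over all 14008 genes the count of 0 was 1 without the variance trend and 545 with sample weights. It was 0 to 171 with single tumors left out, the 171 being without IK replicate 2. The complex I core median of 0.035 was 0.076 with the length adjustment. Members with differences near 0 changed sign: Ndufa4l2 with quantile normalization (0.067), Cox6a1 with median centring (0.0060), sample weights (0.032) and length adjustment (0.034), Cox7a2 with median centring (0.0063) and length adjustment (0.034), and Cox8a with sample weights (0.0049) and length adjustment (0.026). With single tumors left out Ndufa4l2 ranged from -0.10 to 0.053, Ndufa4 from -0.0045 to 0.064, Cox4i1 from -0.0020 to 0.072, Cox6a1 from -0.033 to 0.042, Cox7a2 from -0.047 to 0.052, Cox8a from -0.043 to 0.036 and Sdhb from -0.0093 to 0.040. The ratio of Cox8b to Cox8a ranged from -0.84 to 0.012 and that of Ndufa4l2 to Ndufa4 from -0.12 to 0.018. The causes were not tested.

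The deviations of same-numbered tumors gave r from -0.305 to 0.447 over the 6 numbers, highest for replicate 6. Such correlations cannot exclude that the numbers pair tumors. With the replicate block 0 members and 0 genes were called, and 0 members had an unadjusted p under 0.05 (limma). Reads limit Cox8b most, at 4 in 2 tumors. The median half-width of the members' 95% intervals was 0.13, with 0.075 in complex II and 0.084 among core subunits of complex I.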
